A study of Drosophila melanogaster with 6 samples.

Results

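This account covers 10 genes for peptide hormones of the gut and the nervous system of Drosophila melanogaster: Tk, NPF, sNPF, Dh31, CCHa1, CCHa2, AstA, AstC, Mip and Akh. They were taken by gene symbol from the annotation of an oligonucleotide array. Of the 10 genes, 8 had a probe set named for them, 1 each, among the 18952 probe sets of the array. No probe set was named for Tk or AstA, so these genes were not analysed here.

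RNA came from whole larvae early in the last instar, all tissues together, reared on baker's yeast. The 3 gain samples carried a transgene with the whole DHR96 cDNA behind a heat-inducible promoter, put into the w1118 strain by P-element transformation. The 3 control samples were w1118 larvae without a transgene. Larvae of both groups were heated to 37.5 °C for 1 h, beginning 3 h after the moult into that instar, the L3, and RNA was extracted 4 h later. DHR96 is a nuclear receptor known for roles in the response to xenobiotics and in sterol and triacylglycerol balance. A heat-shock promoter acts in most tissues, so the model does not single out the gut, the fat body or the brain. The labels describe a single transgenic line and list no unheated larvae. A standing difference between the line and its host therefore cannot be told apart from the effect of induced DHR96. They do not say whether the samples of a group were separate cultures, and p-values measure only the spread between these samples.

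Peptide hormones are cut from larger precursors, amidated in many cases, stored in dense-core granules and released to act on G protein-coupled receptors. In the fly midgut they are made by scattered enteroendocrine cells, and most of the same genes are also active in neurons of the brain and ventral nerve cord. Akh is the exception, being made in the corpora cardiaca, glandular cells beside the brain, and the peptide mobilises lipid and glycogen from the fat body. CCHa2 is also made in the larval fat body, where it is known as a nutrient-dependent signal to the insulin-producing cells of the brain.

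Hr96, the gene for DHR96, checked the labels. Its log2 intensity lay at 9.47 to 9.82 in control and 14.64 to 14.73 in gain, which differ by 5.10 ± 0.13 on the log2 scale (SE over 3 arrays in each group). Array gain 2 stood apart from the rest: the median log2 value of the 7974 tested features was 8.61 there and 8.95 to 9.10 on the other 5 arrays. Controls 1 and 2 were closer to each other than any other pair of arrays, with a median absolute log2 difference of 0.0802, against 0.136 to 0.416 in the other pairs. The median log2 difference between gain and control over all tests was -0.15.

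CCHa2 had the largest difference of the peptide genes, and it was lower on every gain array than on every control array without passing the test over all genes. AstC showed the same separation with a smaller difference, while Mip and Dh31 overlapped between the groups. NPF, sNPF, CCHa1 and Akh lay below the floor on all 6 arrays. A feature was tested when its log2 value reached the floor of 4 on at least 3 arrays, which left 4 of the 8 peptide genes. None of the 4 passed at an adjusted p under 0.05 in limma, a linear model with moderated variances, and 2 had an unadjusted p under 0.05. Among all tests 3.47% were called lower in gain, 0.451% higher and 3.93% in either direction. An unadjusted p under 0.05 was seen in 21.1% of all tests, and 75.0% had a negative difference.

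**Figure D1:**
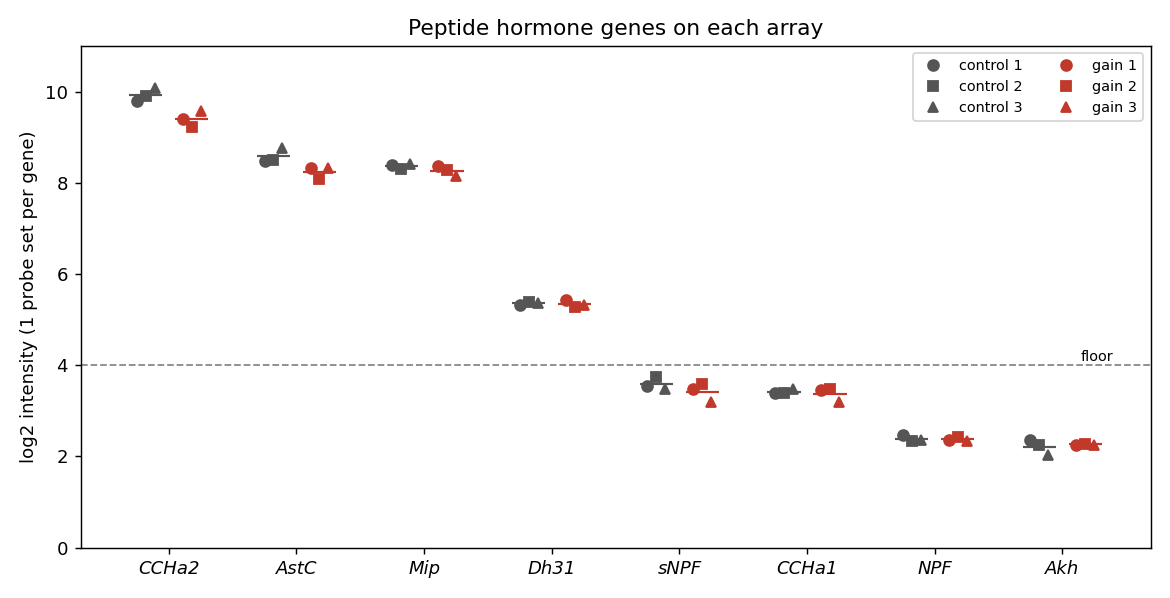
The vertical axis gives log2 intensity for the single probe set of each of 8 peptide hormone genes, with grey symbols for the 3 control arrays, red for the 3 gain arrays, a short bar for each group mean and a dashed line at the floor of 4. CCHa2 and AstC separate between the groups, Mip and Dh31 overlap, and the other genes lie below the floor; probe sets differ in brightness, so heights are not to be compared between genes.

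CCHa2 (CG14375) read 9.80, 9.90 and 10.07 on the control arrays (log2) and 9.39, 9.22 and 9.57 on the gain arrays. The lowest control array thus lay above the highest gain array. The means were 9.92 ± 0.132 and 9.39 ± 0.178 (SD, n = 3), a log2 difference of -0.53 ± 0.13 (SE; adjusted p = 0.0875 by limma). This is 1.44-fold lower, and the 95% interval of the log2 difference, not adjusted for the number of tests, ran from -0.85 to -0.21. Of all tests, 83.6% had a smaller absolute difference. Whole larvae were measured, so fewer CCHa2 cells and less CCHa2 RNA in each cell cannot be told apart, nor can gut, fat body and brain.

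AstC (CG14919) encodes allatostatin C, a peptide named for its block of juvenile hormone synthesis in a moth and made in fly enteroendocrine cells and neurons. Its log2 values were 8.47, 8.49 and 8.77 in control and 8.32, 8.09 and 8.32 in gain. The groups did not overlap, but the gap between them was smaller than the spread within either group. The log2 difference was -0.33 ± 0.13 (SE over 3 arrays in each group; limma's adjusted p = 0.215), with a 95% interval of -0.65 to -0.02. The 2 tested peptide genes whose gain arrays all lay below the controls stand against a background in which 25.2% of all tests did so, and 5.49% lay above on every array.

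Mip (CG6456) encodes the myoinhibiting peptides, also called allatostatin B, which act on the sex peptide receptor SPR. Its log2 values were 8.40, 8.30 and 8.42 in control and 8.36, 8.28 and 8.14 in gain, with gain 1 and control 2 inside the range of the other group. The log2 difference was -0.11 ± 0.11 (SE over 3 arrays in each group; limma's adjusted p = 0.577), with a 95% interval of -0.37 to 0.14.

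Dh31 (CG13094) encodes a calcitonin-like diuretic hormone that also acts on gut muscle. Its log2 values were 5.33, 5.39 and 5.36 in control and 5.42, 5.28 and 5.33 in gain, the narrowest spread of the 4 tested genes within control. The groups overlapped, with a log2 difference of -0.01 ± 0.09 (SE over 3 arrays in each group; limma's adjusted p = 0.95). The 95% interval, expressed as a ratio of gain to control, was 0.847 to 1.16. A 2-fold change of Dh31 in either direction thus lay outside its interval, as it did for Mip, for AstC and for CCHa2.

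The 4 remaining genes gave values only. For sNPF (CG13968), the short neuropeptide F gene of feeding and growth, log2 values were 3.54, 3.75 and 3.48 in control and 3.48, 3.59 and 3.20 in gain. CCHa1 (CG14358), the gene of a related CCHamide peptide, lay at 3.39, 3.40 and 3.47 in control and 3.45, 3.48 and 3.20 in gain. In both, gain 3 was the lowest array and the groups overlapped. NPF (CG10342), the fly relative of vertebrate neuropeptide Y, lay at 2.47, 2.33 and 2.37 in control and 2.36, 2.42 and 2.34 in gain. Akh (CG1171) lay at 2.37, 2.24 and 2.03 in control and 2.26, 2.28 and 2.25 in gain. Values this low have no reliable order on this array. Without the filter none of the 4 passed in limma, with adjusted p-values from 0.38 for sNPF to 0.833 for NPF. A difference in these transcripts was not detectable here, in RNA of whole larvae.

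A shift equal for all genes of an array cancels in the ratio of 2 of them, so the 4 tested genes were also compared within arrays. A shift that depends on brightness does not cancel. On gain 2 the median log2 value was the highest of the arrays over all probe sets, 3.253, and the lowest over tested features, 8.61. Dh31 read much lower than the other 3 genes, so such a shift cannot be told apart in its ratios. The log2 ratio of Dh31 to CCHa2 was -4.47, -4.52 and -4.71 in control and -3.97, -3.93 and -4.25 in gain. Its mean moved by 0.52, and the gain arrays all lay above the control arrays. The ratio of Dh31 to AstC moved by 0.32 and that of CCHa2 to AstC by -0.20, in both cases without overlap between the groups. For these 3 ratios the two-sided exact permutation p was 0.1, the smallest that 3 against 3 arrays allow, or 0.2 when adjusted over the 6 pairs. The ratio of CCHa2 to Mip moved by -0.42, that of AstC to Mip by -0.22 and that of Dh31 to Mip by 0.10, and here the groups overlapped (exact permutation p = 0.2, 0.2 and 0.3). This test cannot go below a threshold of 0.05 with 3 arrays in each group. The 6 ratios come from only 4 genes and are not independent. The share of other gene pairs that separate in this way was not computed. Of all single tests, 25.2% had every gain array below every control array and 5.49% had every gain array above.

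**Figure D2:**
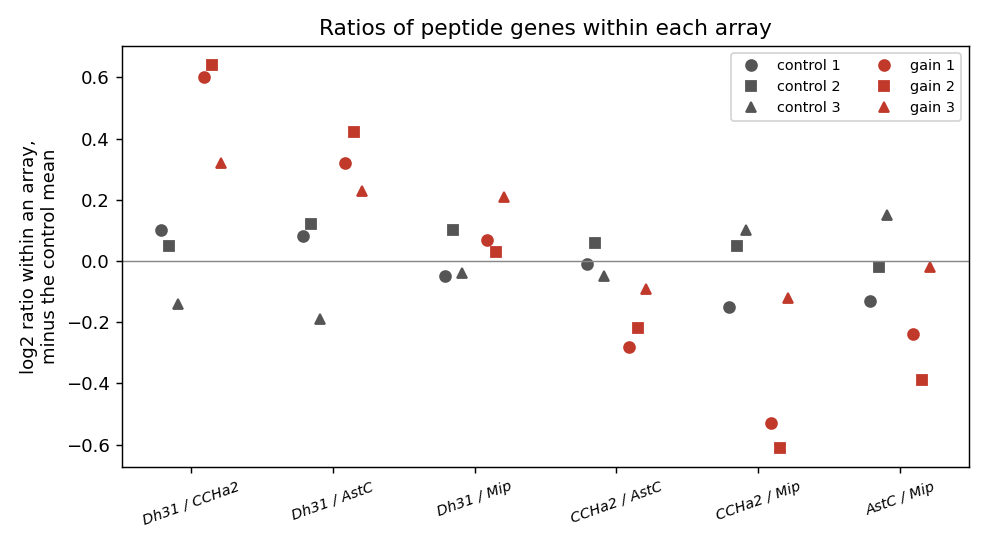
Each point is the log2 ratio of 2 peptide hormone genes on 1 array, minus the mean of that ratio over the 3 control arrays; grey symbols are control and red symbols gain arrays. The gain arrays lie apart from the controls for Dh31 over CCHa2, Dh31 over AstC and CCHa2 over AstC, and overlap them for the 3 ratios to Mip.

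The 3 named genes whose values followed CCHa2 most closely over the 6 arrays were Nagk, CG31832 and CG6171, with Pearson r of 0.996, 0.995 and 0.995. The 6 points share the step between the groups, and the 3 genes were picked as the highest of all, so these values are a description. Nagk lay at 9.49, 9.67 and 9.90 in control and 8.65, 8.26 and 8.90 in gain. As in CCHa2, gain 2 was the lowest array and control 3 the highest. The log2 difference of Nagk was -1.08 (adjusted p = 0.037 by limma), that of CG6171 -2.23 (adjusted p = 0.041) and that of CG31832 -1.26 (adjusted p = 0.0518). The calls of Nagk and CG6171 ended when any single array other than gain 3 was left out, with adjusted p-values from 0.0583 to 0.135, and also with no filter (0.118 and 0.151) and with controls 1 and 2 averaged (0.127 and 0.129). In these fits the differences ran from -1.18 to -0.91 for Nagk and from -2.38 to -1.85 for CG6171.

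Receptors of these peptides were mostly below the floor. Of 13 receptor genes 10 had a probe set, 8 of these lay below the floor on all 6 arrays, at log2 values of 2.06 to 2.73, and 2 were tested. Neither passed. Dh31-R, the receptor of the DH31 peptide, lay at 4.81, 4.87 and 5.92 in control and 4.88, 3.96 and 4.49 in gain. The log2 difference was -0.76 (adjusted p = 0.289 by limma). Control 3 was far above the other controls, and without it the difference was -0.40. AkhR, the receptor of the Akh peptide on the fat body, lay at 4.08, 4.21 and 3.82 in control and 4.03, 4.33 and 3.92 in gain, close to the floor in both groups. Its log2 difference was 0.06 (adjusted p = 0.872), and the sign turned without control 3, without gain 2 and with array weights.

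None of 6 tested genes of the Akh response passed in limma, and 2 had an unadjusted p under 0.05, where 21.1% of all tests did. Apart from AkhR their differences were negative, 5 of 6, against the 75.0% of all tests. Their median log2 difference was -0.45, against -0.15 over all tests. The gene tobi encodes an alpha-glucosidase known to be under control of both Akh and insulin-like peptides. It lay at 10.53, 10.46 and 10.56 in control and 10.09, 9.95 and 10.12 in gain, with a clear gap between the groups. Of all tests, 25.2% had every gain array below every control array. The log2 difference of tobi was -0.46 ± 0.10 (SE over 3 arrays in each group; adjusted p = 0.0588). It passed with a pseudocount of 16 (adjusted p = 0.0489) and with both forms of array weights (0.00184 and 0.00746). Of all tests, the 2 forms of weights called 1928 and 1237 lower, against 277 as reported. The difference of tobi became -0.21 under median centring and -0.28 under quantile normalization. The lipase gene bmm and the lipid droplet gene plin1 had differences of -0.58 and -0.63 with overlapping groups (adjusted p = 0.25 and 0.269). The other gene with an unadjusted p under 0.05 was foxo, at -0.44 with overlapping groups (adjusted p = 0.215). Some markers of the fat body, the tissue in which these genes act, varied within groups. Lsp2, a storage protein gene, ran from 11.64 to 14.45 in control and from 12.10 to 12.62 in gain. The marker apolpp was steadier, from 15.14 to 15.41 in control and from 15.17 to 15.25 in gain. None of 4 tested fat body markers passed, with log2 differences of -0.79 for Lsp2, -0.59 for Fbp2, 0.45 for Fbp1 and -0.08 for apolpp. With single arrays left out Lsp2 ran from -1.51 without control 2 to -0.11 without control 3, Fbp2 from -1.0 without control 2 to -0.05 without gain 1, and Fbp1 from -0.06 without gain 3 to 0.87 without control 3. The summed log2 values of the 4 markers ran from 43.0 to 48.0 in control and from 42.9 to 46.6 in gain.

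Genes that mature and secrete peptides gave no call among 6 tested, of 9 on the list, and none had an unadjusted p under 0.05 in limma. Their median log2 difference was -0.04. Pal2, which encodes a lyase of peptide amidation, had the largest difference, with 7.72, 7.74 and 7.82 in control and 7.65, 6.56 and 7.25 in gain. Its log2 difference of -0.61 (adjusted p = 0.261) became -0.31 without gain 2. Phm, the other amidation enzyme, and the carboxypeptidase gene svr had differences of -0.17 and -0.06 (adjusted p = 0.478 and 0.746).

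Peptide hormone genes outside the 10 gave no call either. Of 31 on the list 25 had a probe set, 15 lay below the floor on all arrays and 10 were tested. None passed, 1 had an unadjusted p under 0.05 in limma, and the median log2 difference was -0.11. The largest differences were those of the myosuppressin gene Ms, of Nplp1 and of Lst, the gene of limostatin, a suppressor of insulin release, at -0.69, -0.67 and -0.65 (adjusted p = 0.236, 0.364 and 0.341). Nplp1 lay at 5.54, 5.51 and 5.35 in control and 5.35, 3.88 and 5.18 in gain, so that gain 2 was far below the rest. Without gain 2 its difference was -0.21. Ilp2 and Ilp5, 2 insulin-like peptide genes of the brain cells that CCHa2 is known to act on, were singled out after their values were seen. Ilp2 lay at 5.95, 6.05 and 5.92 in control and 5.78, 5.85 and 5.92 in gain. The log2 difference was -0.12 (adjusted p = 0.507 by limma). Ilp5 had a log2 difference of 0.01 (adjusted p = 0.984), which turned negative without control 1, control 2 or gain 3.

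**Figure D3:**
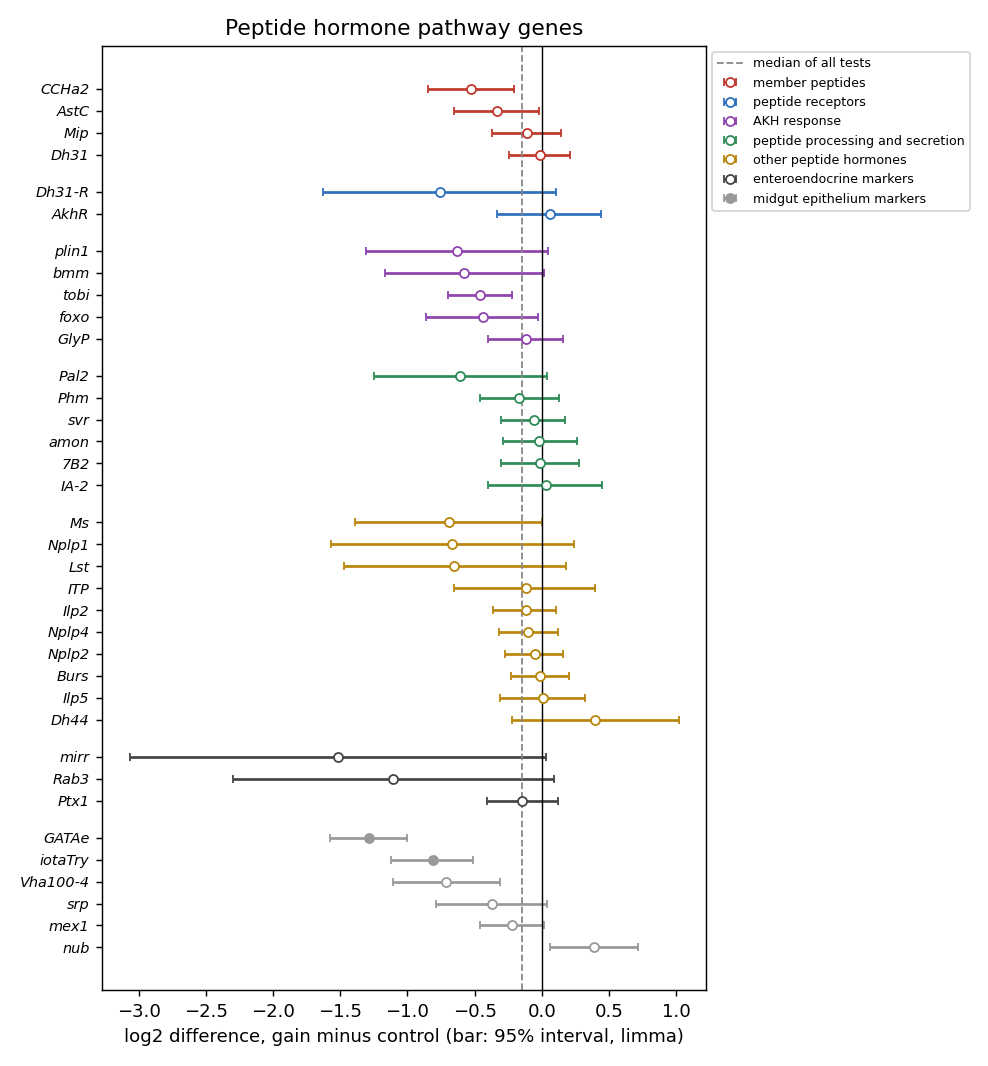
Points give the log2 difference of gain minus control and bars its 95% interval from limma. All tested genes of each list are drawn, except the neuron and fat body markers. Filled points have an adjusted p under 0.05, and a dashed line marks the median of all tests, -0.15. GATAe and iotaTry, of the midgut epithelium, are the filled points; AkhR is drawn once, among the receptors.

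Markers of the tissues that make these peptides were set beside them. Of the enteroendocrine regulators pros, tap and Poxn lay below the floor on all arrays, so the labelled mixture of all tissues gave no direct reading of that cell type. None of 3 tested enteroendocrine markers passed. The homeobox gene mirr had a log2 difference of -1.52 (adjusted p = 0.245 by limma), or -0.78 without gain 2. With the mean of its 2 probe sets the difference was -0.94 (adjusted p = 0.241). The brightest probe set of mirr passed at -1.10 without control 3 and gain 2 together (adjusted p = 0.0212). It also passed with both forms of array weights (0.0194 and 0.0463). Each of these settings called more of all tests than the reported fit. Rab3, of secretory vesicles, had -1.11 (adjusted p = 0.266), and the homeobox gene Ptx1 had -0.15 (adjusted p = 0.481). The summed log2 values of the 3 ran from 20.5 to 22.6 in control and from 16.7 to 21.0 in gain, with the lowest on gain 2.

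Of 6 tested midgut epithelium markers 2 were called lower and none higher, where 3.47% and 0.451% of all tests were. GATAe, a GATA factor of the endoderm, lay at 9.37, 9.35 and 9.28 in control and 7.93, 7.95 and 8.25 in gain. The log2 difference was -1.29 ± 0.12 (SE over 3 arrays in each group; limma's adjusted p = 0.0063). The trypsin gene iotaTry had a difference of -0.81 (adjusted p = 0.0243). The proton pump subunit gene Vha100-4 had -0.71 without passing (adjusted p = 0.0732). It passed without gain 3 (0.0421) and with both forms of array weights (0.0027 and 0.0148). The weights called more of all tests than the reported fit. The markers mex1 and srp had -0.22 and -0.37 (adjusted p = 0.269 and 0.281), beside a median of -0.15 over all tests. Against these, nub, picked with its values in view, lay at 9.71, 9.76 and 9.59 in control and 9.90, 10.01 and 10.32 in gain. Every gain array of nub was above every control array, with a difference of 0.39 (adjusted p = 0.178) that passed under median centring, at 0.65 (adjusted p = 0.0466). The call of GATAe ended without control 1 (adjusted p = 0.0506). That of iotaTry ended without control 1, control 2, gain 1 or gain 2 (adjusted p from 0.0569 to 0.142), and also with no filter (0.0629), controls 1 and 2 averaged (0.129), the replicate number as a block (0.0626) and median centring (0.0502). Its difference was -0.56 under median centring and -0.81 to -0.76 in the other fits that ended the call. The summed log2 values of the list, which include the 2 called genes, ran from 63.4 to 64.3 in control and from 60.4 to 62.1 in gain. How often such sums separate for other genes was not tested. Of the 6 genes, 4 lay lower on every gain array than on every control array and 1 lay higher. Among all tests 25.2% and 5.49% did so. The falls of GATAe and iotaTry shared the step between the groups with CCHa2 and AstC, but not the order of arrays within control. Control 3 was the lowest control for GATAe and iotaTry and the highest for CCHa2 and AstC. Within gain, gain 3 was the highest array for GATAe, iotaTry and CCHa2, while AstC read 8.32 on both gain 1 and gain 3. The lowest was gain 1 for GATAe and iotaTry and gain 2 for CCHa2 and AstC. Whether these falls had a part in the lower values of CCHa2 and AstC was not tested.

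Neuron markers had 5 tested genes, all with negative differences and none passing, 2 of them at an unadjusted p under 0.05 in limma, where 75.0% and 21.1% of all tests did so. Their median log2 difference was -0.52. The pan-neuronal genes elav and fne, which encode RNA-binding proteins, had differences of -0.52 and -0.69 (adjusted p = 0.351 and 0.264), and Snap25, of synaptic vesicle fusion, had -0.53 (adjusted p = 0.231). Without gain 2 the differences were -0.20 for elav, -0.41 for fne and -0.30 for Snap25. Csp, a vesicle chaperone gene picked with its values in view, lay nearest the threshold, at -0.51 without overlap (adjusted p = 0.0544). Csp passed with both forms of array weights (adjusted p = 0.00175 and 0.00573) and without control 3 and gain 2 (0.0352). These settings called more of all tests than the reported fit. Csp also passed with an intensity trend (0.0429) and with a pseudocount of 16 (0.0464). Under median centring its difference was -0.25 and it did not pass (adjusted p = 0.17). Other defining neuron genes, brp, nSyb, para and cac, were not tested because of low values. The summed log2 values of the list ran from 40.1 to 41.6 in control and from 36.4 to 39.9 in gain. Their part in the differences of CCHa2 and AstC was not tested.

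The call of CCHa2 depended on how arrays were weighted. With array weights its log2 difference was -0.42 and it passed (adjusted p = 0.0067, or 0.0209 with the weights estimated gene by gene, a form added after the data were seen). Of the 7974 tests, array weights called 1928 lower and 638 higher, against 277 and 36 as reported. Weights estimated gene by gene called 1237 and 289. The first form of weights placed most of the comparison on control 1, control 2 and gain 1, and gave control 3 and gain 2 weights of 0.313 and 0.137. Without control 3 and gain 2 the difference was -0.37 and did not pass (adjusted p = 0.102). Its sign was negative in all 21 alternatives, from -0.62 to -0.28. Median centring of arrays gave the -0.28 (adjusted p = 0.177), with the median of all tests at 0.11. The difference of AstC was also negative in all 21 but was -0.08 under median centring and under quantile normalization.

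**Figure D4:**
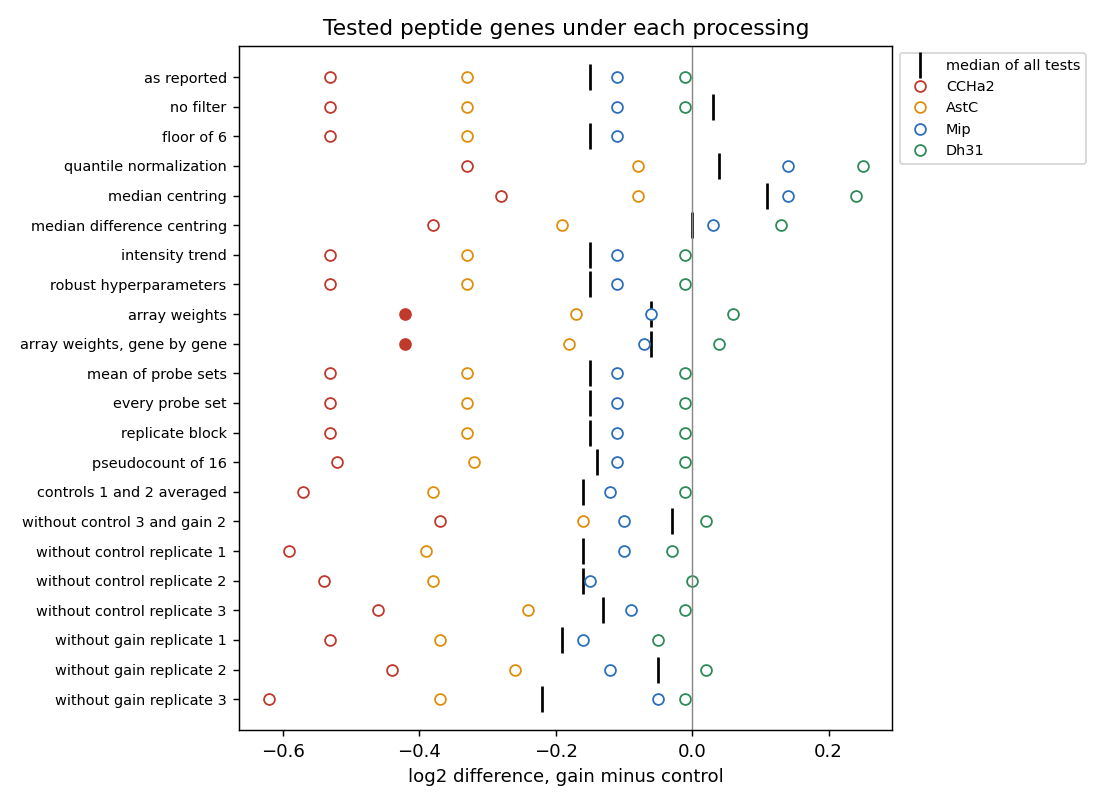
The horizontal axis gives the log2 difference of gain minus control for the 4 tested peptide genes under the reported processing and each alternative, with black ticks for the median of all tests and filled points for an adjusted p under 0.05. CCHa2 stays lowest throughout and is filled only under the 2 forms of array weights; Dh31 is not tested with a floor of 6.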

How the data were processed

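The deposited values are linear intensities, 1 per probe set and array, which the authors obtained with GCRMA, a background correction and summary of probes, per the submitters' processing notes (no version named). They ran from 2.54 to 86989 and were taken as log2 with no pseudocount. No scanner setting or genome build is given in the sources used here. The platform annotation named 1 gene for 13647 of 18952 probe sets, several for 402 and none for 4720, besides 183 array controls. Of those with 1 gene, 13544 matched a Release 6 gene table by gene ID, used for current symbols only.

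Features at a log2 value of 4 or more on at least 3 of 6 arrays were kept, with the brightest probe set of a gene. Gain and control were compared over all 7974 tests with limma 3.58.1 in R 4.3.3 (lmFit, eBayes, no covariate) and Benjamini-Hochberg adjustment. Ratios within arrays were compared by exact permutation. Python 3.11.15, pandas 2.3.3, NumPy 2.4.6 and Matplotlib 3.10.9 made the tables and figures. The procedure was tested on simulated data. The number of arrays limits the precision.

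The members, taken by symbol, and the lists were chosen with earlier results of these data known. Named genes were the members, the called and up to 3 most different genes of each list, Hr96, and the 3 genes most like the member with the largest difference. Same-numbered samples did not deviate together in every pair (correlations of 0.21, 0.026 and 0.367), so the numbers were not taken as pairs.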

Additional observations from a re-analysis of the deposited data

How the results depend on the processing

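The tests were repeated with no filter, a floor of 6, 3 other scalings, an intensity trend, robust hyperparameters, array weights, other uses of probe sets, a replicate block, a pseudocount of 16, controls 1 and 2 averaged, and arrays left out. The planned array weights stopped before reaching their convergence tolerance. Tests called lower and higher numbered 277 and 36 as reported. They numbered 85 and 17 with no filter, 40 and 13 with controls 1 and 2 averaged, 631 and 129 without control 3 and gain 2, 1928 and 638 with array weights, and 1237 and 289 with weights estimated gene by gene. Calls of higher tests numbered 162 under quantile normalization, 204 under median centring and 129 under median difference centring. Leaving out single arrays gave 27 to 374 lower and 12 to 51 higher, with the fewest without control 1. With the replicate number as a block, 217 were lower and 41 higher, CCHa2 had an adjusted p of 0.0973, and among named genes the block ended the call of iotaTry and gave one to CG31832 (adjusted p = 0.0252). Peptide genes called numbered 0 as reported and 1, CCHa2, under each form of array weights. Ms, elav and Fbp2 passed in limma with array weights (adjusted p = 0.0463, 0.0463 and 0.0411). With weights estimated gene by gene these 3 genes did not pass. The median difference of the tested peptide genes was -0.22. It was -0.08 with no filter, where 8 were tested, 0.03 under quantile normalization and median centring, and -0.08 under median difference centring. It ran from -0.27 to -0.16 with single arrays left out.

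Signs turned in several genes that had not passed. Under quantile normalization differences became 0.25 for Dh31, 0.14 for Mip, 0.13 for Ilp2, and 0.10 for svr and Ptx1. Under median centring they were 0.24 for Dh31, 0.14 for Mip, 0.13 for Ilp2, 0.09 for Phm, 0.19 for svr and 0.11 for Ptx1. Under median difference centring they were 0.13, 0.03, 0.02 and 0.08 for Dh31, Mip, Ilp2 and svr, and 0.0 for Ptx1. With array weights Dh31 was at 0.06 and AkhR at -0.07, and with weights estimated gene by gene at 0.04 and -0.09. Without control 3 and gain 2 they were at 0.02 and -0.17. With controls 1 and 2 averaged Ilp5 was at -0.04. With single arrays left out, Dh31 ran from -0.05 to 0.02, AkhR reached -0.06, Ilp5 -0.07, and Fbp1 ran from -0.06 to 0.87. Both forms of centring add the same amount to the difference of every gene. Under median centring the median of all tests went from -0.15 to 0.11. The cause of the turns in the other settings was not tested.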
